A study of Mus musculus with 136 samples.

Results

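The 9 genes described here carry the response of cells to low oxygen: Hif1a, Epas1, Egln1, Egln3, Vhl, Bnip3, Ankrd37, Vegfa and Adm. They were chosen by symbol from the 47643 genes of the count table, and each of them has 1 row there. RNA of 66 mouse concepti of the NOD strain was measured at 8.5 days of gestation, with a library for the whole embryo and another for its visceral yolk sac, so that 132 libraries enter the comparisons. NOD mice become diabetic without an agent being given, and dams in the diabetic group had blood glucose of 423 to 595 mg/dl at euthanasia, with 1 litter given only as above the scale, against 105 to 164 mg/dl in control dams of the same strain, fed the same chow. At 5 or 6 somite pairs control dams gave 17 concepti in 10 litters, and diabetic dams gave 17 in 9. At 7 to 9 somite pairs there were 16 from 7 control litters and 16 from 6 diabetic litters, of which the litter D24M15 alone gave 7. The stages share dams, with 10 control and 12 diabetic litters in all. Every control litter of the later stage also gave concepti at the earlier one, as did the diabetic litters D24M15, D28M23 and D28M36. Females of the diabetic group were mated once hyperglycemic. The age of each dam and the duration of its diabetes are not given in the labels, and the stage of a yolk sac is the somite count of its embryo. Litters are named as in the sample titles, in which D marks a diabetic and N a control dam.

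In cells with enough oxygen, prolyl hydroxylases of the Egln family hydroxylate the alpha subunits of the hypoxia-inducible factors (HIF), and the protein of Vhl, the substrate receptor of a ubiquitin ligase, then marks them for degradation. When oxygen falls, the alpha subunits escape this mark, pair with Arnt and switch on genes of glycolysis, mitophagy and vessel growth, among them Egln1 and Egln3 themselves. The embryo at this age lives in a low-oxygen environment before the placental circulation is working, and its first vessels and blood form in the yolk sac. Regulation of the alpha subunits acts mostly on the protein, which RNA counts do not show.

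HIF binds a short core that reads ACGTG or GCGTG, and the promoters of the HIF-induced genes are shown here because the measurements below ask whether these genes moved together. The sequences span 250 bases before to 50 bases after a RefSeq start (GRCm38.p6, the build that is also called mm10), are written 5′ to 3′ on the strand of the gene, and have the core in capitals on either strand, so that CACGT and CACGC mark a core on the opposite strand and CACGTG holds an ACGTG on each strand.
Bnip3 (chr7:138909457-138909756, minus strand): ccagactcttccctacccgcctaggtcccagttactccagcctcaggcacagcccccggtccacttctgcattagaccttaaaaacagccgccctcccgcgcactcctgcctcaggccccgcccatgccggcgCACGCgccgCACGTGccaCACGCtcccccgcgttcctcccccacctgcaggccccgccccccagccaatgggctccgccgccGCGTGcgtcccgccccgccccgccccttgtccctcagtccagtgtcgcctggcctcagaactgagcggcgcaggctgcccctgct
Ankrd37 (chr8:45999801-46000100, minus strand): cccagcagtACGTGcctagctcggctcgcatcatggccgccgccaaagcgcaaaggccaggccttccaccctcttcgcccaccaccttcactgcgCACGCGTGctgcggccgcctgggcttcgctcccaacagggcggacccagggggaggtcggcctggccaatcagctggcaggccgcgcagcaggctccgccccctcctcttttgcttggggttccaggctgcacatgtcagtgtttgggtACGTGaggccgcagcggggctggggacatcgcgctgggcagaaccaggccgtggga
Egln1 (chr8:124949205-124949504, minus strand): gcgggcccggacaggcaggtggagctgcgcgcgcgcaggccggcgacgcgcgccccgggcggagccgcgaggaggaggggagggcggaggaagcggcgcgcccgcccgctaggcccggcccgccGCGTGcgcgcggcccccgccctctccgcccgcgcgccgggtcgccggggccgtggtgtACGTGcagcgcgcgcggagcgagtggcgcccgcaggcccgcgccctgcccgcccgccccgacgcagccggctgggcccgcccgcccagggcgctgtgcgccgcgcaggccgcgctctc
Egln3 (chr12:54203825-54204124, minus strand): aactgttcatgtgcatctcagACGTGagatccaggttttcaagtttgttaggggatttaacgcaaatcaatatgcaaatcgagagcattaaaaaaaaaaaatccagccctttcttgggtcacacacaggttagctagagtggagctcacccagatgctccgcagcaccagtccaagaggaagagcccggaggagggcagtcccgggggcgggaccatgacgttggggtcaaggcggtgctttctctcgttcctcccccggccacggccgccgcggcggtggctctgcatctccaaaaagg
Vegfa (chr17:46025114-46025413, minus strand, a start inside the gene): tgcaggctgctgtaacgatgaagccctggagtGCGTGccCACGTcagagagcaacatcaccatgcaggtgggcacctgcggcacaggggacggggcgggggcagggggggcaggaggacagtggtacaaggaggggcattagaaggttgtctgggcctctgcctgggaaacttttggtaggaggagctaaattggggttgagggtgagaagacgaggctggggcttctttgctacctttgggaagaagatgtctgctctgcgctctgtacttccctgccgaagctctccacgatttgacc
Adm (chr7:110627407-110627706, plus strand): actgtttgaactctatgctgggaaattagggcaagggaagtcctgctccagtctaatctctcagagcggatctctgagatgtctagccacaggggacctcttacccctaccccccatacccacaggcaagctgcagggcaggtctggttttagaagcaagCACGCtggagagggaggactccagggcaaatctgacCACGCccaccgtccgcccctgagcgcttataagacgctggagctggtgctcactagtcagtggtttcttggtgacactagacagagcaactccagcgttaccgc

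In GENCODE M21 (GRCm38) the genes of the alpha subunits lie at chr12:73901375-73947530 (Hif1a, plus strand) and chr17:86753700-86833410 (Epas1, plus). The sensors lie at chr8:124908587-124949324 (Egln1, minus), chr12:54178981-54203860 (Egln3, minus) and chr6:113623959-113631633 (Vhl, plus). The targets lie at chr7:138890836-138909519 (Bnip3, minus), chr8:45996902-46005707 (Ankrd37, minus), chr17:46016993-46032369 (Vegfa, minus) and chr7:110627661-110629820 (Adm, plus). All 9 are protein-coding genes, and reads of this assay come from the 3′ ends of their transcripts.

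Bnip3 had 5 cores in this window, 4 of them within a short stretch whose first bases lie at -117 to -99 relative to the start. Ankrd37 had 4, the nearest at -6. Egln1 had 2 and Egln3 had 1, at -229. Adm had 2, both GCGTG on the opposite strand, at -90 and -54. Of the 2 RefSeq starts of Vegfa, the one inside the gene had 2 cores and the one at the 5′ end of the gene had 0. The promoter of Hif1a itself had 3 ACGTG and that of Vhl had 0, and Epas1 has no entry in the promoter table. The starts used for Ankrd37 and Hif1a (window chr12:73907617-73907916) also lie well inside the GENCODE spans given above, away from the annotated 5′ ends. Such cores are common: 19.6% of all 32851 RefSeq promoters of this length held ACGTG, 32.4% held GCGTG and 43.8% held either. The matches are letters in a window and were not measured as binding.

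Read depth lay between 1017901 and 5757211 counted molecules per library, with a median of 2337159. The labelled tissues were checked with marker lists. Summed over 10 markers of visceral endoderm, the normalized counts were 94.7 to 3281 in embryos and 10088 to 50472 in yolk sacs, and summed over 5 markers of neuroectoderm they were 590 to 1529 in embryos and 0 to 56.8 in yolk sacs, so that neither list overlapped between tissues. A list of 5 cardiac markers did overlap, at 177 to 2887 in embryos and 30.1 to 1375 in yolk sacs. In 2 concepti the labels give the embryo and its yolk sac different sexes. Values below are normalized counts, that is counted molecules divided by a size factor. For comparisons of tissues or stages the size factors run over all 132 libraries, and for comparisons of diabetic with control pregnancies over the libraries of that tissue and stage. All 9 genes passed the edgeR filter on low counts in every comparison, except Ankrd37 between diabetic and control yolk sacs at 7 to 9 somite pairs. The library of each conceptus was treated as a replicate, and littermates share a dam, so litters were also compared. In whole tissue, fewer cells of a type and less RNA per cell cannot be told apart.

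**Figure D1:**
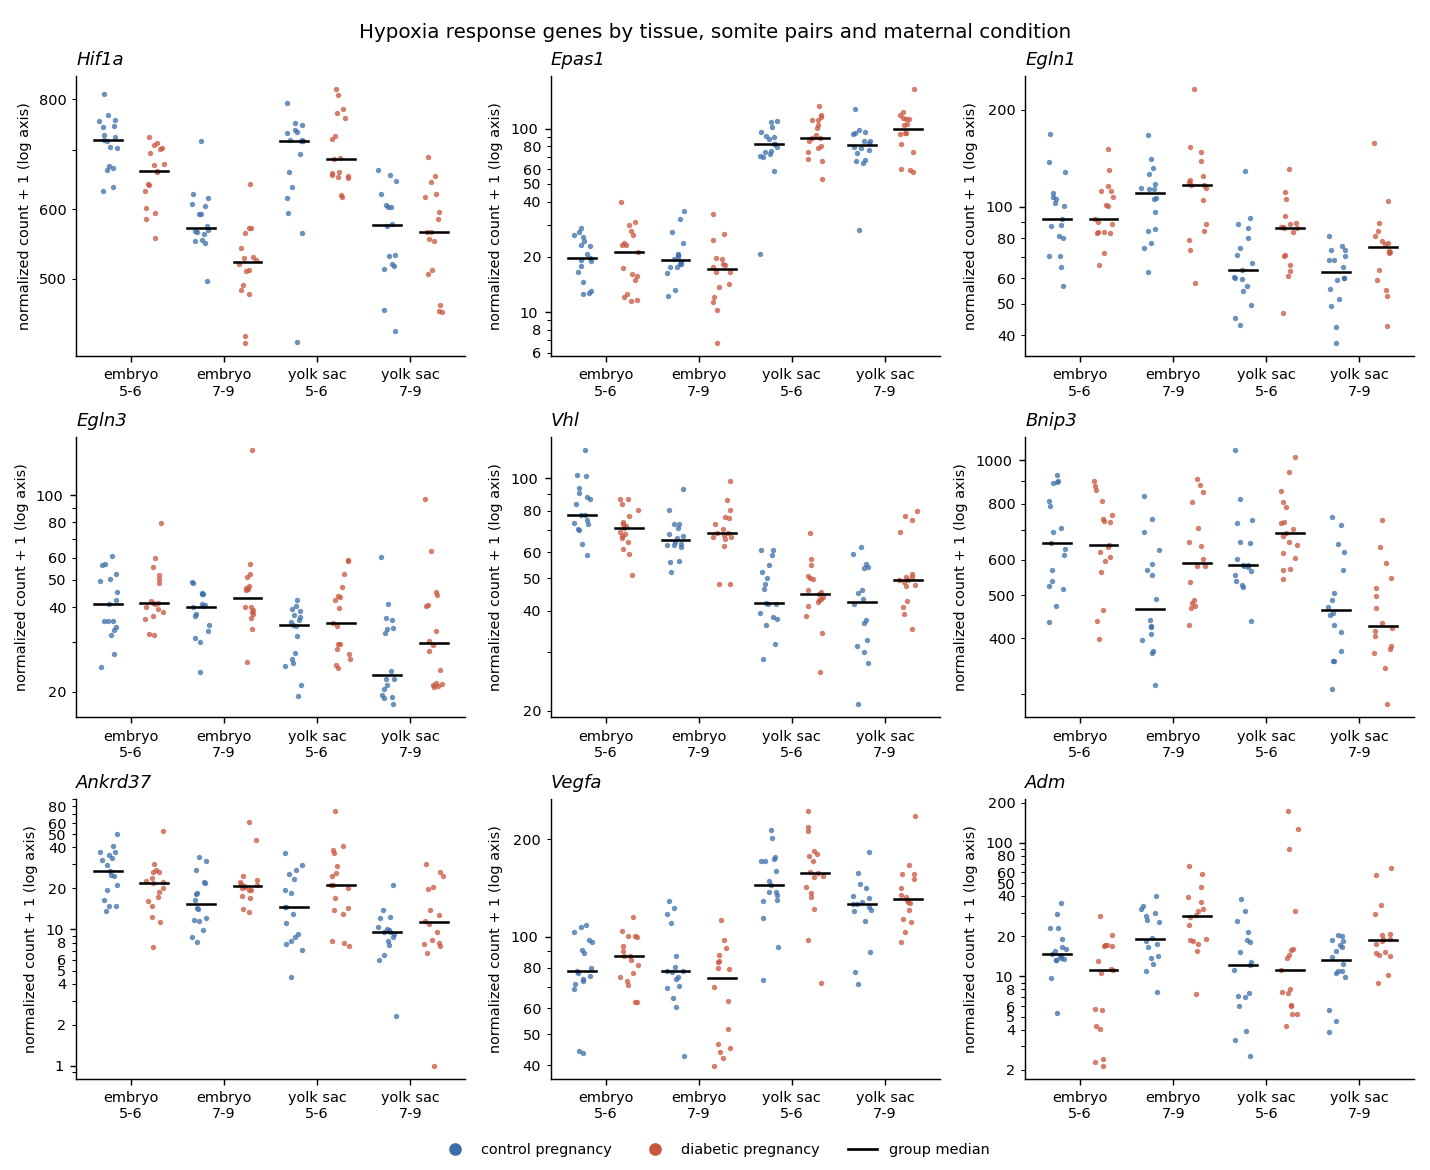
Normalized counts plus 1 (log axis, size factors over all libraries) of the 9 genes in each library, by tissue and somite pairs, blue for control and red for diabetic pregnancies, with black lines at the group medians. Epas1 and Vegfa sit higher in yolk sacs than in embryos, Vhl sits lower, Hif1a drops from 5-6 to 7-9 somite pairs in both tissues, and 3 diabetic yolk sacs at 5-6 somite pairs stand above the others for Adm.

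The tissues differed first in the second HIF alpha subunit. Epas1, which encodes HIF-2 alpha and is known from endothelium, had 10.4 to 38.8 normalized counts in embryos at 5-6 somite pairs, with a median of 19.1, against 19.6 to 132 in yolk sacs, with a median of 85.3. It was higher in the yolk sac than in the embryo of the same conceptus in 33 of 34 concepti. At 7-9 somite pairs the ranges, 5.78 to 34.7 in embryos and 27.1 to 164 in yolk sacs, overlapped only through the lowest yolk sacs, and the yolk sac was higher in 32 of 32 concepti. The edgeR quasi-likelihood test over all genes gave a 4.47-fold excess in the yolk sac at the earlier stage (log2 fold change 2.16 ± 0.11 SE, adjusted p = 2.9e-30) and 4.97-fold at the later (2.31 ± 0.12, adjusted p = 2.2e-29). Hif1a, which encodes HIF-1 alpha, did not separate the tissues. Its medians were 698 in embryos and 705 in yolk sacs at 5-6 somite pairs and 557 and 569 at 7-9, the yolk sac was higher in 18 of 34 and 17 of 32 concepti, and the intervals of the log2 difference ran from -0.01 to 0.16 and from -0.03 to 0.14. Of the beta subunits, which are not among the 9 genes, Arnt was higher in the yolk sac by 0.68 and 0.64 on the log2 scale and Arnt2, its counterpart in neural tissue, was lower, with log2 fold changes of -4.40 and -4.49.

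The genes that restrain HIF were lower in the yolk sac. Vhl had a median of 72.6 in embryos and 43.5 in yolk sacs at 5-6 somite pairs and was lower in the yolk sac in every one of 34 concepti, at a log2 fold change of -0.69 ± 0.07 (adjusted p = 3.4e-14). At 7-9 somite pairs the medians were 66.1 and 46.6, the yolk sac was the higher tissue in 4 of 32 concepti, and the log2 fold change was -0.52 ± 0.08 (adjusted p = 2.3e-08). Egln1, the main HIF prolyl hydroxylase, fell from a median of 90.8 in embryos to 71.8 in yolk sacs at 5-6 somite pairs and from 113 to 68.4 at 7-9. Its log2 fold change was -0.30 ± 0.09 and then -0.68 ± 0.10 (adjusted p = 0.0022 and 1.0e-08), and the yolk sac was higher in 10 of 34 and in 3 of 32 concepti. Egln3, the family member most strongly induced by HIF, was lower by 0.26 and 0.42 (adjusted p = 0.0092 and 0.0043). The yolk sac was the tissue with more Egln3 in 10 of 34 and 5 of 32 concepti, so part of the concepti went against the difference.

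The 4 targets did not move as a block between tissues. Vegfa, the main growth factor for endothelium, had 42.6 to 114 normalized counts in embryos at 5-6 somite pairs (median 82.1) and 71.0 to 242 in yolk sacs (median 152). It was higher in the yolk sac in 32 of 34 and 30 of 32 concepti, 1.92-fold at the earlier and 1.71-fold at the later stage (log2 fold change 0.94 ± 0.08 and 0.78 ± 0.10, adjusted p = 9.6e-17 and 6.5e-11). Bnip3, which encodes a mitophagy receptor, did not pass the test at the earlier stage, with medians of 650 and 648 and an interval of the log2 difference from -0.10 to 0.20, and was lower in the yolk sac at the later one, with medians of 560 and 453 (-0.23 ± 0.09, adjusted p = 0.017). Ankrd37, an ankyrin repeat gene that HIF induces in many cells, showed the same order. Its medians were 22.2 in embryos and 16.9 in yolk sacs at 5-6 somite pairs, where the test was not passed (-0.25 ± 0.19, adjusted p = 0.21), and 18.5 and 8.79 at 7-9, where it was (-0.78 ± 0.17, adjusted p = 4.1e-05). With the litter as a random block the earlier difference of Ankrd37 passed as well (-0.40 ± 0.18, adjusted p = 0.035). It also passed without the litters D28M36 and D28M53 (-0.62 ± 0.18, adjusted p = 0.0016). That choice was made after the values were seen, and D28M36 holds the yolk sac with the most Ankrd37 at this stage. Without the litter D24M15 the later difference of Bnip3 did not pass (-0.15, adjusted p = 0.20).

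Adm encodes adrenomedullin, a vasoactive peptide. Its tissue difference turned between the stages: the fitted log2 fold change was 0.74 ± 0.32 at 5-6 somite pairs (adjusted p = 0.030) and -0.56 ± 0.18 at 7-9 (adjusted p = 0.0040). The earlier difference was not seen in the middle of the distribution: the medians were 12.98 in embryos and 10.7 in yolk sacs, and the yolk sac was the higher tissue in 17 of 34 concepti. It rested on the diabetic litters D28M36 and D28M53, and without them the log2 fold change was -0.14 ± 0.25 (adjusted p = 0.61). The call was also lost with each conceptus as a block (0.27, adjusted p = 0.32) and without the litter D24M15 (0.68, adjusted p = 0.052). At the later stage the medians were 23.96 in embryos and 15.1 in yolk sacs, and the yolk sac was the higher tissue in 9 of 32 concepti.

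In all, 6 of the 9 genes passed the test between tissues at 5-6 somite pairs, 3 in each direction, and 8 of 9 at 7-9, 2 higher and 6 lower in the yolk sac. Most genes differ between these tissues: 79.1% of all genes tested passed at the earlier stage and 81.2% at the later, so a tissue difference is common to most genes.

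**Figure D2:**
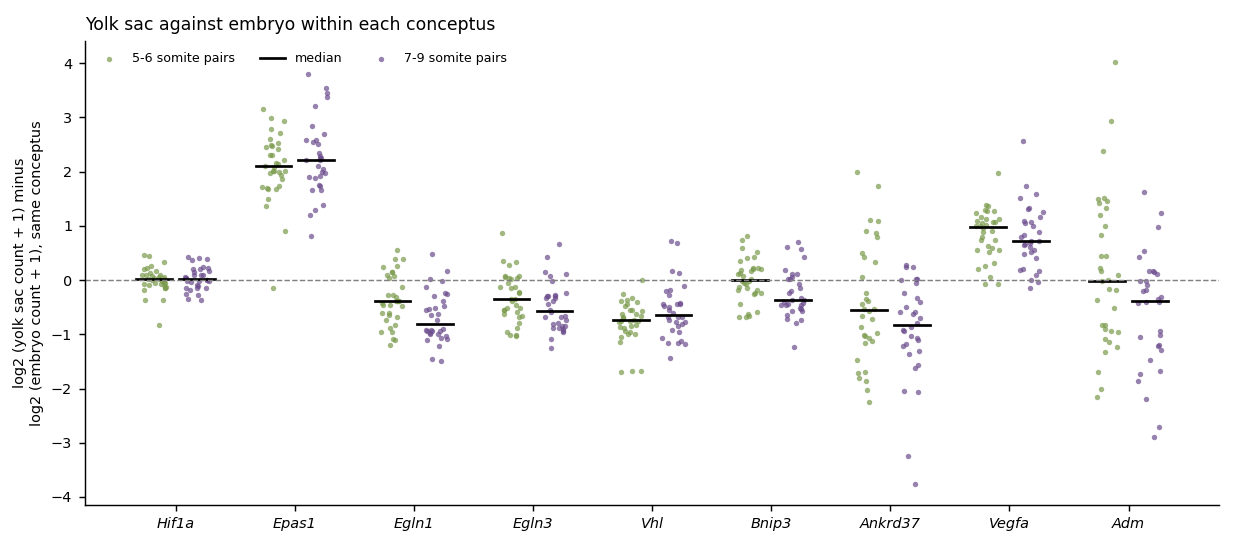
Difference of log2(normalized count + 1) between the yolk sac and the embryo of the same conceptus (1 point per conceptus, size factors over all libraries) for the 9 genes at 5-6 and 7-9 somite pairs, with black lines at the medians. Values above 0 are higher in the yolk sac, as in 33 of 34 and 32 of 32 concepti for Epas1, and for Vhl the points lie below 0 in all 34 concepti at 5-6 somite pairs.

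Between 5-6 and 7-9 somite pairs the level of Hif1a dropped in both tissues. Embryo values of 555 to 810 (median 698) at 5-6 somite pairs gave way to 421 to 717 (median 557) at 7-9, a 1.24-fold decrease (log2 fold change -0.31 ± 0.04, adjusted p = 5.7e-10), and yolk sac values went from a median of 705 to 569 (-0.28 ± 0.05, adjusted p = 2.3e-06). With size factors over each tissue, the medians by somite number in embryos were 748 at 5 pairs, 715 at 6, 609 at 7, 575 at 8 and 604 at 9, so the largest step lay between 6 and 7 somite pairs. Bnip3 dropped as well, from a median of 650 to 560 in embryos (-0.24 ± 0.09, adjusted p = 0.032) and from 648 to 453 in yolk sacs (-0.48 ± 0.08, adjusted p = 3.2e-06). Ankrd37 fell in the yolk sac, where its median went from 16.9 to 8.79 (-0.76 ± 0.20, adjusted p = 0.0019), and in embryos it had medians of 22.2 and 18.5, which did not pass the test (adjusted p = 0.17). Vegfa fell in the yolk sac from 152 to 127 (-0.23 ± 0.09, adjusted p = 0.031), and Vhl fell in the embryo from 72.6 to 66.1 (-0.16 ± 0.06, adjusted p = 0.046). The fall of Vhl lay mostly in control embryos, where the group mean went from 81.8 to 65.9, against 70.2 to 69.1 in diabetic embryos. Without the litter D24M15 the test was no longer passed by Vhl in embryos (-0.18, adjusted p = 0.062), Bnip3 in embryos (-0.23, adjusted p = 0.079) and Vegfa in yolk sacs (-0.21, adjusted p = 0.061). The same 3 calls were lost with the litter as a random block on all libraries (-0.16, -0.21 and -0.20, adjusted p = 0.051, 0.074 and 0.073).

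Adm went the other way in the embryo. Values of 1.14 to 34.5 at 5-6 somite pairs, with a median of 12.98, were followed by 6.36 to 66.2 at 7-9, with a median of 23.96 (log2 fold change 0.92 ± 0.20, adjusted p = 0.00023). This fit pools both conditions. Group means went from 16.1 to 20.7 in control and from 10.1 to 29.5 in diabetic embryos, so the rise was mostly that of diabetic embryos. Cardiac markers moved with it: 4 of the 5 on the list rose in embryos between the stages, with a median log2 fold change of 0.63, and their part in the result was not tested. Together 4 of 9 genes passed the stage test in embryos, 1 raised and 3 lowered, against 29.8% of all genes tested (2 of 9 without the litter D24M15 or with the litter as a random block), and 4 of 9 passed in yolk sacs, all lowered, against 40% of all genes. The median log2 fold change of the 9 genes was -0.13 in embryos and -0.23 in yolk sacs, where that of all genes tested was -0.0051 and 0.0089. Epas1, Egln1 and Egln3 did not pass in either tissue. Adm in yolk sacs had a stage difference of 0.50 without the litters D28M36 and D28M53, with the opposite sign to the fit on all libraries (adjusted p = 0.11).

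The comparison of diabetic with control pregnancies, made separately for both tissues at both stages, addresses whether maternal diabetes changes the hypoxia response of the conceptus. No gene of the 9 passed the edgeR test at an adjusted p under 0.05 in any of the 4 comparisons. At an unadjusted p under 0.05 there were 3 of 9 in embryos at 5-6 somite pairs, 5 of 9 in embryos at 7-9, 3 of 9 in yolk sacs at 5-6 and 4 of 8 in yolk sacs at 7-9, and DESeq2 called 0, 1, 0 and 0 of them after adjustment. The unadjusted counts rested on single litters. In embryos at 5-6 there was 1 without D28M23, D28M37 or the control litter N24M29. In embryos at 7-9 there was 1 without D23M26, a single embryo, or without D28M23. In yolk sacs at 5-6 there was 1 without D28M36, a single yolk sac, or without the control litter N28M06 or N28M22, and 0 without D28M53. In yolk sacs at 7-9 there were 2 without D23M26, D24M15 or the control litter N28M05 or N28M07. With the litter as a random block the counts were 1, 3, 0 and 2, in the order above. With the number that begins the sample titles as a covariate they were 3, 3, 3 and 1. Over all genes tested, 1.46%, 9.09%, 0% and 0.0194% were called in these comparisons, in the same order. For yolk sacs at 5-6 somite pairs, where edgeR called none of 10250 genes, 4 passed with DESeq2. The direction was nevertheless mostly upwards in yolk sacs. There 9 of 9 log2 fold changes were above 0 at 5-6 somite pairs, with a median of 0.20, and 6 of 8 at 7-9, with a median of 0.30, where the medians over all genes were -0.0044 and 0.016. In embryos 4 of 9 were above 0 at 5-6 somite pairs (median -0.016) and 6 of 9 at 7-9 (median 0.14), beside medians of 0.0038 and -0.0099 over all genes. The upward count in yolk sacs at 5-6 somite pairs was 8 of 9 without the litters D28M36 and D28M53, and its median was then 0.11 (0.12 without D28M53 alone and 0.11 without the control litter N28M06 alone). At 7-9 it was 8 of 8 without D24M15, with a median of 0.27, and the median was 0.18 without D23M26, the litter whose absence also moved that of embryos, to 0.045. The embryo median at 7-9 was 0.085 without the control litter N28M03. With the title number as a covariate, the medians at 7-9 were 0.16 in yolk sacs (7 of 8 above 0) and 0.057 in embryos (5 of 9). These genes share libraries and are not independent of each other, and the counts carry no test.

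**Figure D3:**
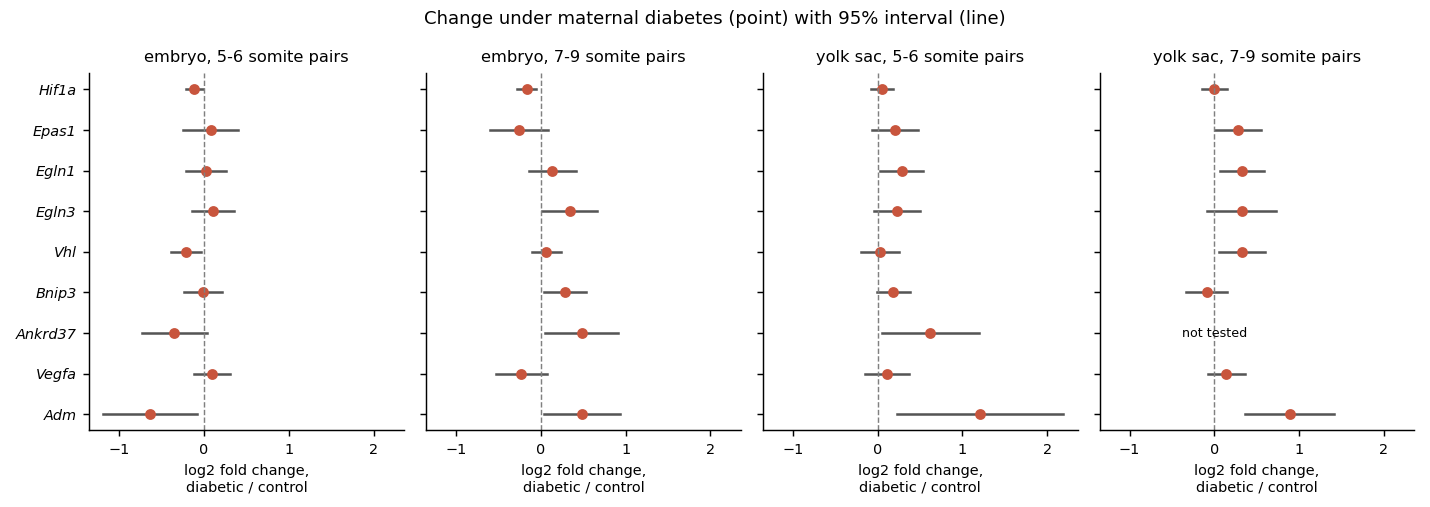
Log2 fold change of diabetic over control pregnancies (points) with the 95% interval (lines) from the edgeR fit of each tissue and stage, for the 9 genes. In embryos Hif1a lies left of 0 at both stages, Adm lies left of 0 at 5-6 and right of 0 at 7-9 somite pairs, and in yolk sacs the points lie at or right of 0 except that of Bnip3 at 7-9.

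Among the 9 genes Hif1a had the most even difference under diabetes, and it was seen in embryos. At 5-6 somite pairs control embryos had 724 to 934 normalized counts (median 833) and diabetic embryos 660 to 854 (median 779), with 2 of 17 diabetic embryos above the control median and 4 below every control. At 7-9 somite pairs the values were 482 to 679 (median 555) and 408 to 622 (median 508), with 2 of 16 above the control median and 5 below every control. The groups overlapped at both stages, and the log2 fold changes were -0.12 ± 0.05 (adjusted p = 0.20) and -0.17 ± 0.06 (adjusted p = 0.054). The later difference passed with DESeq2 (-0.16, adjusted p = 0.031) and when the litter D28M31 (-0.21, adjusted p = 0.025) or the control litter N28M06 (-0.18, adjusted p = 0.046) was left out. These were the only 3 of 24 alternative fits that passed, and the adjusted p ran from 0.025 to 0.23 over them all. At 5-6 somite pairs it ran from 0.12 to 0.56 over 30 alternative fits. With the number that begins the sample titles (23, 24 or 28, not explained in the labels) as a covariate, the log2 fold changes were -0.12 and -0.14 (adjusted p = 0.19 and 0.082). With the litter as the unit the groups overlapped little. Litter means lay between 809 and 891 in 10 control litters and between 685 and 822 in 9 diabetic litters at 5-6 somite pairs, and between 524 and 605 in 7 control and 414 and 569 in 6 diabetic litters at 7-9, and no diabetic litter was above the median of the control litters at either stage. The two-sided exact permutation test of litter means of log2(normalized count + 1) gave differences of -0.12 (p = 0.0009) and -0.22 (p = 0.0052). Of 36 such tests, 1 for each gene in each comparison, 6 had p under 0.05, and the p-values are unadjusted. The stages share litters, so the tests at both stages are not independent of each other. The summed neuroectoderm markers were lower in the same embryos. Their medians were 952 in diabetic against 1145 in control embryos at 5-6 somite pairs (615 to 1331 and 839 to 1529). At 7-9 they were 736 against 878 (589.7 to 1311 and 672 to 1126). Around the means of stage and condition, r of Hif1a with these markers was -0.15 over the 66 embryos. The part of neuroectoderm in the level of Hif1a was not tested.

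Yolk sacs gave no such difference for Hif1a. Control yolk sacs had 408 to 748 normalized counts at 5-6 somite pairs (median 682) and diabetic ones 588 to 778 (median 652), and at 7-9 the medians were 518 and 519. The log2 fold changes were 0.05 ± 0.07 and -0.0020 ± 0.07, with 95% intervals from -0.08 to 0.19 and from -0.15 to 0.14. The difference between tissues in the change of Hif1a, tested as an interaction, was 0.18 ± 0.08 at 5-6 (adjusted p = 0.63) and 0.17 ± 0.09 at 7-9 somite pairs (adjusted p = 0.30), so a difference between embryo and yolk sac was not shown. Epas1 had medians of 77.3 in control and 84.0 in diabetic yolk sacs at the earlier stage and of 72.5 and 90.1 at the later one, with log2 fold changes of 0.20 ± 0.14 and 0.28 ± 0.14 (adjusted p = 0.68 and 0.45), and in embryos its fold changes were 0.08 ± 0.16 and -0.26 ± 0.17 (adjusted p = 0.82 and 0.34).

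Of Egln1, Egln3 and Vhl, Egln3 had the largest fitted change in embryos at 7-9 somite pairs. Control embryos had 22.02 to 47.4 normalized counts (median 38.3) and diabetic embryos 23.9 to 139 (median 40.7), with 4 of 16 diabetic embryos above every control. The highest value belongs to the embryo D23M26A, the only one of its litter at this stage. The log2 fold change was 0.34 ± 0.16 (adjusted p = 0.17), and it was 0.13 both without that litter, D23M26, and with the title number as a covariate. The litter means gave a difference of 0.54 (exact permutation p = 0.026, unadjusted), with 5 of 6 diabetic litters above the control median. Egln1 had higher medians in diabetic than in control yolk sacs. At 5-6 somite pairs the control range was 40.3 to 123 (median 59.1) and the diabetic range 43.0 to 127 (median 81.1), and 15 of 17 diabetic yolk sacs were above the control median. At 7-9 somite pairs the ranges were 34.4 to 73.3 (median 56.3) and 37.8 to 145 (median 67.5), with 5 of 16 diabetic yolk sacs above every control. The log2 fold changes of Egln1 were 0.28 ± 0.13 and 0.33 ± 0.13 (adjusted p = 0.58 and 0.38), and the litter tests gave exact permutation p = 0.19 and 0.33.

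Vhl had opposite signs in the earlier embryo and the later yolk sac. In embryos at 5-6 somite pairs its median was 89.9 in control and 82.9 in diabetic pregnancies, at a log2 fold change of -0.22 ± 0.09 (adjusted p = 0.17). In yolk sacs at 7-9 somite pairs the values were 18.0 to 54.4 (median 37.9) in control and 31.3 to 72.0 (median 43.9) in diabetic pregnancies, at 0.32 ± 0.14 (adjusted p = 0.39). Here 13 of 16 diabetic yolk sacs were above the control median, and the litter test gave 0.35 with 6 of 6 diabetic litters above the control median (exact permutation p = 0.024, unadjusted).

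The targets Bnip3 and Ankrd37 had higher medians in diabetic embryos at 7-9 somite pairs. Bnip3 had 306 to 815 normalized counts (median 450) in control and 423 to 894 (median 572) in diabetic embryos, and 15 of 16 diabetic embryos were above the control median. Ankrd37 had 6.82 to 32.4 (median 13.8) and 11.8 to 58.4 (median 19.4), with 14 of 16 above the control median. The groups overlapped for both genes, the log2 fold changes were 0.29 ± 0.13 and 0.48 ± 0.22 (adjusted p = 0.14 and 0.15), and the litter tests gave 0.33 (exact permutation p = 0.073) and 0.73 (p = 0.040). At 5-6 somite pairs the order was not kept: 9 of 17 and 3 of 17 diabetic embryos were above the control median, with log2 fold changes of -0.02 ± 0.11 and -0.35 ± 0.20 (adjusted p = 0.95 and 0.30). The summed cardiac markers of embryos at 7-9 had medians of 2179 in diabetic and 1649 in control pregnancies. Around the means of stage and condition, r with these markers over 66 embryos was 0.44 for Bnip3 and 0.371 for Ankrd37. The part of cardiac cells in the changes of Bnip3 and Ankrd37 was not tested. In yolk sacs at 5-6 somite pairs Ankrd37 had medians of 12.8 and 18.9, at 0.62 ± 0.29 (adjusted p = 0.58). At 7-9 it counted 0 to 33 molecules per library and did not pass the edgeR filter on low counts, and without that filter the log2 fold change was 0.55 ± 0.27 (adjusted p = 0.56). The 3′ part of the annotation limits what is counted for Ankrd37: it overlaps Ufsp2 by 57 bases on the opposite strand, the strand setting of the counting is not given, and Ufsp2 had a mean of 133 counts.

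Vegfa, the angiogenic target, had close medians over libraries in both conditions. Its medians in control and diabetic pregnancies were 90.3 and 100.5 in embryos at 5-6 somite pairs, 74.9 and 70.7 in embryos at 7-9, 136 and 149.9 in yolk sacs at 5-6 and 113 and 119 in yolk sacs at 7-9. The log2 fold changes were 0.10 ± 0.11, -0.23 ± 0.15, 0.11 ± 0.13 and 0.14 ± 0.11, in that order, and the lowest of the adjusted p-values was 0.33. The widest of the 95% intervals, in embryos at 7-9 somite pairs, ran from -0.53 to 0.07. In these embryos the litter means had medians of 79.3 in 7 control and 59.6 in 6 diabetic litters. The litter test gave -0.32 (exact permutation p = 0.12, unadjusted), with 1 of 6 diabetic litters above the control median. With the title number as a covariate the log2 fold change was -0.41 ± 0.15 (adjusted p = 0.0545).

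Adm varied most between conditions. In embryos at 5-6 somite pairs control values of 5.13 to 39.8 (median 15.97) stood against diabetic values of 1.35 to 32.1 (median 12.1), and 5 of 17 diabetic embryos were below every control. In embryos at 7-9 somite pairs the order was turned: control values of 6.48 to 37.4 (median 17.4) stood against 6.16 to 63.9 (median 26.7), with 4 of 16 diabetic embryos above every control and 6 of 6 diabetic litters above the control median. The log2 fold changes were -0.63 ± 0.28 (adjusted p = 0.19) and 0.49 ± 0.23 (adjusted p = 0.17), and the litter tests gave -0.82 (exact permutation p = 0.076) and 0.84 (p = 0.033). The difference between the stages in the change under diabetes, tested as an interaction in embryos, was 1.13 ± 0.37 for Adm (edgeR, adjusted p = 0.045), the only one of the 9 genes called, beside 8.7% of all genes tested. This call was lost without the 2 concepti with unequal sex labels (1.08, adjusted p = 0.066) and without a filter on low counts (1.14, adjusted p = 0.076). Ankrd37 had the next largest interaction, 0.84 ± 0.30 (adjusted p = 0.063), which passed without the litter D24M15 (adjusted p = 0.049). Without that litter the change of Adm at 7-9 somite pairs passed too (0.77 ± 0.25, adjusted p = 0.047). The summed cardiac markers moved alongside: 177 to 2352 in diabetic against 774 to 2600 in control embryos at 5-6 somite pairs (medians 1423 and 1681) and 1735 to 2887 against 1134 to 2075 at 7-9 (medians 2179 and 1649), with 3 of 5 cardiac markers called raised at 7-9. The summed endothelium markers had medians of 528 in diabetic and 649 in control embryos at 5-6 somite pairs, and of 572 and 587 at 7-9. Around the means of stage and condition, r of Adm in embryos was 0.486 with endothelium and 0.431 with cardiac markers. The part of these cell types in the change of Adm was not tested.

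In yolk sacs the excess of Adm at 5-6 somite pairs rested on few libraries. Control values were 1.47 to 36.2 (median 10.6) and diabetic values 3.07 to 165 (median 9.66), so the diabetic median was the lower one, while the fitted log2 fold change was 1.21 ± 0.50 (adjusted p = 0.55). The 3 libraries D28M36B, D28M53B and D28M53G had 86.4, 123 and 165, above every other yolk sac of that stage. Leaving out both litters, a choice made after the values were seen, turned the fitted log2 fold change of Adm to -0.47 ± 0.36 (adjusted p = 0.88), with 12 of 17 diabetic yolk sacs left. These 3 libraries differed in the trophoblast markers. In D28M36B, D28M53B and D28M53G, Ascl2, a gene of spongiotrophoblast, was at 310, 233 and 62.5. The other 31 yolk sacs had a median of 14.7 and a maximum of 229. In the same order Hand1 was at 368, 360 and 242, where the others had 59.3 to 341. Tpbpa was at 4.75, 4.95 and 0, where the others had at most 2.86. The trophoblast giant cell gene Prl3d1 was at 0.79, 0 and 5.90, and Prl2c2 at 1.58, 0 and 12.98. In the others these were at most 0 and 1.19. The 5 trophoblast markers summed to 194 to 685 in diabetic and 62.8 to 536 in control yolk sacs of this stage, and in control yolk sacs 2 of the 5 were at 0 in all libraries. Most of this sum was Hand1, which was expressed in both tissues: its mean was 262 over all yolk sacs and 83.8 over all embryos. Ascl2 had a mean of 39.0 over all yolk sacs, and Prl3d1, Prl2c2 and Tpbpa had 0.12, 0.26 and 0.45. The part of trophoblast cells in the level of Adm was not tested. D28M36B was also the highest yolk sac of the stage for Ankrd37 (70.5), Egln1 (127) and Egln3 (56.3). In the later yolk sacs Adm had 2.65 to 17.5 (median 10.98) in control and 7.14 to 58.6 (median 15.98) in diabetic yolk sacs, with 14 of 16 diabetic yolk sacs above the control median and 6 above every control, at 0.89 ± 0.27 (adjusted p = 0.26) and an exact permutation p of 0.061 for litters. Summed over 5 markers of decidua, the maternal tissue around the conceptus, these yolk sacs had 57.2 to 787 (median 150.5) in diabetic and 61.0 to 180.4 (median 104) in control pregnancies, and at 5-6 somite pairs 51.5 to 448 (median 89.2) and 53.3 to 150.5 (median 77.9). Embryos had medians of 149 to 168 for this sum, so the list was not particular to decidua. Over all libraries Prl8a2 had means of 32.3 in yolk sacs and 1.04 in embryos, and Dcn 23.3 and 11.4. Cryab had 33.4 and 29.4, Hand2 46.9 and 94.0, and Pgr 1.02 and 8.23. Around the group means, r of Adm with this list in yolk sacs was -0.061. The part of decidual cells in the yolk sac values of Adm and the other genes was not tested.

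**Figure D4:**
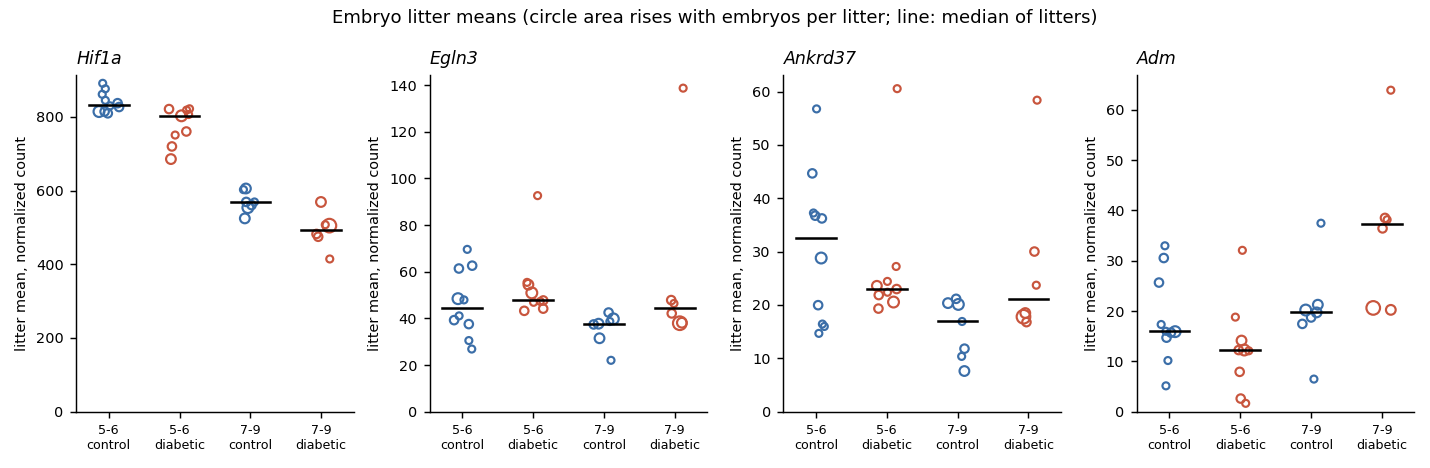
Litter means of normalized counts (size factors over the embryos of a stage) of Hif1a, Egln3, Ankrd37 and Adm in embryos, with 1 circle per litter whose area rises with the number of embryos, blue for control and red for diabetic dams, and black lines at the medians of the litters. For Hif1a the diabetic litters lie at 685 to 822 against 809 to 891 at 5-6 somite pairs, and for Adm at 20.2 to 63.9 against 6.48 to 37.4 at 7-9.

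The change under diabetes was also compared between tissues and, in yolk sacs, between stages. None of the 9 genes was called by edgeR or DESeq2 for a tissue difference at 5-6 (0% of all genes called) or 7-9 somite pairs (0.389%) or for a stage difference in yolk sacs (0%), and 3, 2 and 0 of them had an unadjusted p under 0.05. At 5-6 somite pairs the interaction of Adm was 1.86 ± 0.60 (adjusted p = 0.55) and that of Ankrd37 0.99 ± 0.36 (adjusted p = 0.62). Without the litters D28M36 and D28M53 these were 0.26 ± 0.51 and 0.41 ± 0.36.

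Other genes of the pathway were counted from 3 lists: subunits and regulators of oxygen sensing, further genes induced through HIF in many tissues, and ligands and receptors of the VEGF and adrenomedullin systems. Under diabetes the only comparison with calls was that of embryos at 7-9 somite pairs. There 7 of 45 further HIF targets were raised and 0 lowered, with a median log2 fold change of 0.095 over the list and -0.0099 over all genes, of which 5.2% were raised and 3.89% lowered. Without the litter D24M15 it was 10 of 48 raised and 1 lowered, with the litter as a random block 2 of 45, without the concepti with unequal sex labels 4 of 45 and with counts summed over litters 0 of 49. The 5 with the largest change were 4 enzymes of glycolysis, Gpi1 (0.51 ± 0.10, adjusted p = 0.0027), Pgam1 (0.40 ± 0.13, adjusted p = 0.044), Aldoa (0.38 ± 0.08, adjusted p = 0.0042) and Pfkl (0.36 ± 0.10, adjusted p = 0.018), and the hydroxylase gene Jmjd6 (0.26 ± 0.07, adjusted p = 0.027). Of 13 genes of oxygen sensing, Elob, a subunit of the Vhl ligase, was raised (0.37 ± 0.07, adjusted p = 0.0016), and of 12 genes of the VEGF and adrenomedullin list Ramp2, a part of the adrenomedullin receptor, was raised (0.32 ± 0.08, adjusted p = 0.016) and the co-receptor Nrp2 lowered (-0.32 ± 0.10, adjusted p = 0.042). The counts in these last lists, 1 of 13 and 2 of 12, stand beside the 9.09% called over all genes. In the other 3 comparisons edgeR called none of the listed genes. Of the further HIF targets, 9 of 47 had an unadjusted p under 0.05 in embryos at 5-6 somite pairs, 4 of them above 0, and in yolk sacs it was 10 of 44 with 8 above 0 at 5-6 and 9 of 45, all above 0, at 7-9. The medians of that list were -0.0012, 0.089 and 0.14 in these comparisons.

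Between tissues 15 of 48 further HIF targets were higher in the yolk sac at 5-6 somite pairs and 29 lower, where 39.3% of all genes were higher and 39.7% lower. At 7-9 the counts were 13 and 27 of 48, beside 38.6% and 42.6% of all genes. The median log2 fold change of the list was -0.33 and -0.38, against -0.0043 and -0.042 over all genes. Of the genes of oxygen sensing, 4 of 13 and 4 of 14 were higher in the yolk sac and 6 and 6 lower. The stress gene Ddit4 (-3.25 and -4.08) and the glycolytic Aldoc (-2.18 and -3.21) were the most reduced, and the heme oxygenase Hmox1 was the most raised (1.94 and 1.70). Of the VEGF and adrenomedullin list, the receptor genes Flt1 (0.997 and 0.937), Calcrl (0.89 and 1.22) and Ramp2 (0.97 and 1.02) were higher in the yolk sac, as Vegfa was, and Ramp3 (-2.43 and -2.85) and the ligand Pgf (-1.09 and -1.47) were lower. In all 6 of 11 and 5 of 12 were higher and 4 and 5 lower. Markers of endothelium differed too, with 5 of 6 and 4 of 6 higher in the yolk sac, and their part in these levels was not tested. Between stages, 11 of 48 further HIF targets were raised and 3 lowered in embryos, and 11 of 47 were raised and 13 lowered in yolk sacs. Over all genes 14.6% were raised and 15.2% lowered in embryos, and 21.7% and 18.3% in yolk sacs, so the total of calls in the list lay near the share over all genes in embryos. In yolk sacs Aldoc (-1.15 ± 0.26) and Ndrg1 (-0.90 ± 0.23) fell, as did Ankrd37 and Bnip3. Gapdh (0.99 in embryos and 1.60 in yolk sacs) and Pgk1 (0.88 and 0.93) rose, and both have processed pseudogenes that can share reads with them.

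Whether the HIF-induced genes vary together from conceptus to conceptus was asked for the 15 pairs among Egln1, Egln3, Bnip3, Ankrd37, Vegfa and Adm in each tissue, on log2(normalized count + 1) after subtraction of the mean of each stage and condition (66 libraries per tissue). A permutation test within groups with 100000 resamples, adjusted over the 30 pairs, was passed by 14 pairs, 9 in embryos and 5 in yolk sacs, and 13 of the 14 correlations were positive. The closest pair in both tissues was Egln1 and Vegfa. In embryos Pearson's r was 0.581 (permutation p = 1e-05, the smallest that 100000 resamples can give, adjusted p = 0.0002) and Spearman's rho 0.606 (p = 1e-05, adjusted p = 0.00015), and r was 0.542 without the 2 embryos farthest from the median of Egln1. In yolk sacs r was 0.534 (permutation p = 2e-05, adjusted p = 0.0002) and rho 0.536 (p = 1e-05, adjusted p = 0.00015), and r was 0.516 without the 2 farthest. This pair stayed correlated around the means of the litters, with r of 0.636 in embryos and 0.615 in yolk sacs (53 libraries per tissue). Within the libraries whose titles begin with 24 after the letter, r was 0.745 in embryos and 0.563 in yolk sacs, and within those with 28 it was 0.350 and 0.547. The number in the titles is not explained in the labels, and 23 has only 3 concepti.

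Egln3 and Ankrd37 had r of 0.504 in embryos (permutation p = 2e-05, adjusted p = 0.0002, rho 0.443 with p = 0.00031 and adjusted p = 0.0023) and 0.369 in yolk sacs (p = 0.0051, adjusted p = 0.015, rho 0.412 with p = 0.00084 and adjusted p = 0.0050). Without the 2 farthest libraries r was 0.348 and 0.340. Within the title numbers 24 and 28 r in embryos was 0.688 and 0.298, and in yolk sacs it was 0.229 and 0.358. Around litter means, over the 53 libraries per tissue with a littermate of the same stage, it was 0.094 and 0.084. This pair hardly varied together within litters, and a correlation between litters was not computed. Over the 30 pairs, 2 passed around litter means, both of them Egln1 with Vegfa, and 2 passed within title number 24 and 2 within 28. Bnip3 and Vegfa were the only pair with a negative correlation that passed, in yolk sacs (r = -0.277, permutation p = 0.022, adjusted p = 0.049, rho -0.209 with p = 0.094 and adjusted p = 0.14), and r was -0.230 without the 2 farthest and -0.187 and -0.371 within title numbers 24 and 28. For these 6 genes the correlations are taken over libraries that share dams, and depth made little difference: 14 pairs passed also with the total count held constant. In yolk sacs r with the visceral endoderm markers was -0.623 for Egln1, -0.581 for Egln3 and -0.394 for Vegfa. It was -0.351 for Adm, -0.215 for Ankrd37 and 0.269 for Bnip3. With the trophoblast markers, of which Hand1 had by far the highest counts, r was 0.416, 0.523, 0.132, 0.456, 0.308 and -0.059, in that order. The part of cell types in the correlations was not tested in either tissue.

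**Figure D5:**
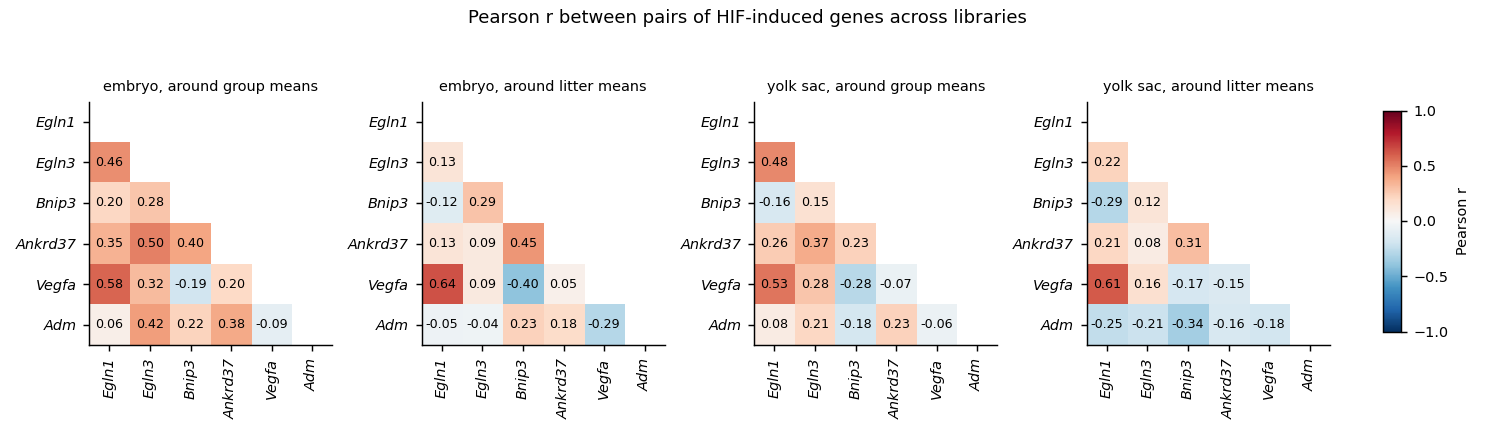
Pearson's r between pairs of the 6 HIF-induced genes in each tissue, from blue for -1 to red for 1. It is taken around the means of stage and condition across 66 libraries, and around the means of litters across the 53 with a littermate of the same stage. Egln1 with Vegfa keeps r of 0.636 in embryos and 0.615 in yolk sacs around litter means, while Egln3 with Ankrd37 goes from 0.504 to 0.094 in embryos.

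The genes whose pattern was most like that of each member were taken from all genes whose mean in the tissue reached 20 normalized counts (9202 in embryos, 8728 in yolk sacs), by Pearson's r over 66 libraries around the group means. For Egln3 the nearest gene was Ndrg1 in embryos (r = 0.690) and in yolk sacs (r = 0.677), and for Ankrd37 in embryos it was Ddit4 (r = 0.690). Vegfa was closest to Rbpms (r = 0.793) in embryos and to Ice1 (r = 0.854) in yolk sacs, and Egln1 to Lats2 (r = 0.657) and Wwtr1 (r = 0.725). Adm was closest to the immediate early gene Ier3 in embryos (r = 0.713) and to Procr, the endothelial receptor of protein C, in yolk sacs (r = 0.598). Epas1 was closest to Stard8 (r = 0.649) in embryos and Smad3 (r = 0.768) in yolk sacs, Hif1a to Gnl3l (r = 0.556) and Nek9 (r = 0.709), Bnip3 to Hddc3 (r = 0.651) and Smim7 (r = 0.697), and Vhl to Pigx (r = 0.642) and Ppme1 (r = 0.623). These values are the highest over all of those genes and describe these libraries only.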

How the data were processed

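Total RNA of embryos and yolk sacs was sequenced by the authors with a 3′ end method (QuantSeq FWD) that tags each molecule. The authors aligned the reads with STAR (mm10, per the submitters' processing notes), collapsed molecular identifiers and counted genes with HTSeq, and deposited raw counts per gene for 136 libraries. Program versions, annotation and the strand setting of the counting are not given in the sources used here. The 4 libraries marked as duplicates were left out. Samples were grouped by the tissue, condition and somite number in the labels.

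Counts were tested with edgeR 4.0.16 (glmQLFit, glmQLFTest, TMM, filterByExpr with a minimum count of 10) under R 4.3.3, and adjusted p-values (Benjamini-Hochberg over all genes tested) under 0.05 were called. Tissue and stage fits had maternal condition as a covariate. Standard errors were taken from the quasi-likelihood F statistic. The fits were tested on simulated data. Normalized counts used DESeq2 1.42.0 size factors. Litter means were compared by two-sided exact permutation over all 92378 or 1716 splits of litters, and a pseudocount of 1 was used on the log2 scale. P-values of the fits treat littermates as independent; limma 3.58.1 estimated their correlation at 0.251 (5-6 somite pairs) and 0.128 (7-9) among embryos and 0.165 and 0.0992 among yolk sacs.

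Embryo and yolk sac of a conceptus share a label. The median correlation of their deviations from the group means was 0.108 at 5-6 somite pairs (above 0.1 in 17 of 34 concepti) and 0.0555 at 7-9 (14 of 32). The 9 genes, the gene lists and the tests were chosen with earlier results of these data known. Listed genes are named where called, at most 5 in each direction per comparison by size of the log2 fold change, where the mean of either group reached 10 normalized counts. Alternatives were other normalizations, filters, tools, covariates, blocks and left-out litters.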

Additional observations from a re-analysis of the deposited data

Results flagged for a closer look

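The change under diabetes differed between the 2 stages of the embryo, by the interaction term of stage and condition in edgeR (adjusted p under 0.05 over 11304 genes), for Adm among the 9 genes and for 8 further genes of the pathway lists. For Adm the difference of the log2 fold changes, 7-9 minus 5-6 somite pairs, was 1.13 ± 0.37 SE (adjusted p = 0.045). Further HIF targets with a positive difference were the hexokinase gene Hk1 at 0.68, Jmjd6 at 0.60, the glycolytic genes Pfkl at 0.55, Gpi1 at 0.48 and Aldoa at 0.46. Elob had 0.50 and Ramp2 0.43. Arnt, the partner of both HIF alpha subunits, was the only one below 0, at -0.65. Over all genes tested 8.7% had such an interaction. The diabetic embryos of the later stage include 7 of 16 from the litter D24M15.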

How the results depend on the processing

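The edgeR fits of the 9 genes were repeated with other normalizations, filters, tools, covariates, blocks and left-out litters. Over single genes the alternatives kept direction and side of the threshold in 1283 cases, gained a call in 6, lost one in 17 and changed sign in 39. Of the sign changes, 38 concern 10 differences that had passed no test.

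The number of the 9 genes called moved by over 1.5 times in 3 comparisons. For diabetes in embryos at 7-9 somite pairs it was 0, and 1 with DESeq2, 1 without the litter D24M15 and 0 to 1 when other litters were left out in turn. For stage in embryos it was 4, and 2 with the litter as a random block or without D24M15, and 3 without a filter, with the title number or without the mismatched concepti. For the difference between stages under diabetes in embryos it was 1, and 0 without a filter or without the concepti with unequal sex labels, and 2 with the litter block or without D24M15. Of the 30 correlated pairs 14 passed, and 2 did around litter means, 2 in title number 24, 2 in title number 28, 1 and 5 in control and diabetic libraries at 5-6 somite pairs and 2 and 1 at 7-9, where fewer libraries enter. Smaller moves were from 6 to 5 between tissues at 5-6 (DESeq2, without D24M15), from 8 to 7 at 7-9 (no filter, without D24M15) and from 4 to 3 between stages in yolk sacs (litter block, without D24M15). The cause of the other changes was not tested.

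With embryo and yolk sac of a conceptus paired as a replicate block, 5 of 9 genes passed between tissues at 5-6 and 8 at 7-9 somite pairs, and 0 and 0 in the interactions with diabetes. Of the 9 genes only Adm at 5-6 lost its call.

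Sign changes under diabetes were small in embryos. Egln1 at 5-6 somite pairs went to -0.0018 without a filter, -0.035 with sex and somite covariates and as low as -0.038 (up to 0.099) over left-out litters, and at 7-9 to -0.018 with the title number as covariate. Bnip3 at 5-6 went to 0.010 with the litter block, 0.056 with litter sums and -0.058 to 0.049 over left-out litters, and Epas1 at 5-6 to -0.067 to 0.13 over left-out litters. In yolk sacs Adm at 5-6 went to -0.47 without D28M36 and D28M53, an alternative added after seeing the data, and Vhl at 5-6 to -0.0047 to 0.11 over left-out litters. Hif1a at 7-9 went to 0.000206 with DESeq2, 0.00339 without a filter, 0.0032 with the title number, 0.0065 without the mismatched concepti, 0.0032 without D24M15, 0.0018 with all 8 groups and -0.030 to 0.026 over left-out litters. Bnip3 at 7-9 went to 0.046 without D24M15, 0.0056 with litter sums and -0.21 to 0.010 over left-out litters. Adm between tissues at 5-6 went to -0.14 without D28M36 and D28M53. Between stages Egln3 in embryos went to -0.0011 without a filter and -0.024 with the title number, and Adm in yolk sacs to 0.28 with the litter block and 0.50 without D28M36 and D28M53.

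Over all genes, calls under diabetes in embryos at 5-6 somite pairs numbered 161, and 493 with DESeq2, 291 without a filter, 92 with sex and somite covariates, 324 with the title number, 464 with all 8 groups, 4 with the litter block, 0 with litter sums and 4 to 675 over left-out litters. At 7-9 they numbered 966, and 1714 with the title number, 314 with the litter block, 609 without the mismatched concepti, 8 with litter sums and 501 to 1067 over left-out litters. In yolk sacs at 7-9 there were 2, and 38 with DESeq2, 25 without a filter, 11 with the mean count filter, 19 with all 8 groups, 1 with the litter block, 0 without D24M15 or with litter sums and 2 to 28 over left-out litters. At 5-6 there were 0, and 4 with DESeq2, 5 with all 8 groups, 1 with sex and somite covariates or the title number and 0 to 3 over left-out litters. Interaction calls were 984 between stages in embryos (438 without a filter, 2129 with the title number) and 45 between tissues at 7-9 (222 with DESeq2, 22 without a filter, 77 with the title number, 99 with the litter block, 18 without the mismatched concepti, 0 without D24M15). Without a filter the tissue calls were 14180 and 14915.

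Depth limits Ankrd37 and Adm most, and Ankrd37 did not pass the edgeR filter in yolk sacs at 7-9 somite pairs, though it was tested under other filters and tools. Littermates were counted as replicates, and 7 of 16 diabetic concepti of the later stage come from 1 dam.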
